A study of Mus musculus with 9 samples.

Results

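Megakaryocyte genes were examined in the open chromatin of mouse LSK cells, the bone marrow fraction that lacks lineage markers and carries Sca-1 and Kit, where blood stem cells and early progenitors are found. The 9 genes were Itga2b, Gp1ba, Gp1bb, Gp9, Gp5, Pf4, Vwf, Rab27b and Nfe2. A peak belonged to a gene when its summit lay inside the gene's span in GRCm38, or within 50 kb of it with that gene as the nearest protein-coding one. This gave 32 regions of 76253 in the whole series, where a region joins peaks of different libraries that share at least 1 bp. Rab27b was picked because one of its regions had been seen open in the Hoxa9 mutant, so its values in that mutant against WT are a description and carry no test.

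The assay was ATAC-seq, where a transposase (Tn5) cuts and tags DNA that is not covered by nucleosomes, on 50000 cells per library from WT or KO mouse models. The groups were WT (n = 2), a mutant of β-catenin called Bcat_KO (n = 2), one of Hoxa9 called HOXA9_KO (n = 2), one of Prmt1 called PRMT1_KO (n = 2) and dKO, labelled with both β-catenin and Hoxa9 (n = 1). Sample titles write KO where the genotype tags write knockdown, and the series text gives only Prmt1 mutant primary transplanted mice as a source, so no allele, Cre or age is given for any group, nor which groups were transplanted. Whether paired libraries came from different animals is not labelled, and their spread may be technical.

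Megakaryocytes are the bone marrow cells that shed platelets. Part of the stem cell compartment in mice is known to be biased towards this lineage and to express some of its genes already, Vwf and Itga2b among them. Platelets stick to damaged vessel walls through the GPIb-IX-V complex, built from the products of Gp1ba, Gp1bb, Gp9 and Gp5, which binds von Willebrand factor, the product of Vwf. Itga2b encodes CD41, the alpha chain of the fibrinogen receptor. Pf4 encodes a chemokine of the platelet alpha granules, Rab27b a small GTPase that acts in granule secretion, and Nfe2 the large subunit of NF-E2, a transcription factor needed for platelet release. Promoters of this lineage are known for sites of GATA and ETS factors that lie close together.

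The start windows of 4 members are shown as examples of starts with a peak in all (Pf4), most (Gp1ba, Gp9) or none (Gp1bb) of the paired libraries. The windows are from RefSeq (GRCm38.p6), read 5′ to 3′ on the strand of the gene, from 250 bases before the transcription start to 50 bases after it. Capitals mark the motifs listed after them, on either strand. Gp9 is at chr6:87777820-87778119 on the plus strand, Gp1ba at chr11:70638872-70639171 on the plus strand, Pf4 at chr5:90772185-90772484 on the plus strand, and Gp1bb at chr16:18622354-18622653 on the minus strand.
Gp9: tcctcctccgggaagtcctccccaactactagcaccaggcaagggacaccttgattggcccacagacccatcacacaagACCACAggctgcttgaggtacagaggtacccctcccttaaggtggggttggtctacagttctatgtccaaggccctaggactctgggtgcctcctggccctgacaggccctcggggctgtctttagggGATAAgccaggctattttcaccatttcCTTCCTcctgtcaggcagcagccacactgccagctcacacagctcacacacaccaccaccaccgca
Gp1ba: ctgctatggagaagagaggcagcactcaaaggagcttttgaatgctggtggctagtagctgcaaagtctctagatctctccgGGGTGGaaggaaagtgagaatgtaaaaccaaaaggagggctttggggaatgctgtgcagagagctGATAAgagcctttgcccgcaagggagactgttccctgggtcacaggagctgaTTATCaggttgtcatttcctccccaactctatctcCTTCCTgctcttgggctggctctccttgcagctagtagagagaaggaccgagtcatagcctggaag
Pf4: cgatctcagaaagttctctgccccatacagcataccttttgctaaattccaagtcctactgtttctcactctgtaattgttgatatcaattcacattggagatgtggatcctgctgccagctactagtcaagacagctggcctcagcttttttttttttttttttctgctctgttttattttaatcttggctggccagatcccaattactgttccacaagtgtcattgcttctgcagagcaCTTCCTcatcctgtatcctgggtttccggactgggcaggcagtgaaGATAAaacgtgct
Gp1bb: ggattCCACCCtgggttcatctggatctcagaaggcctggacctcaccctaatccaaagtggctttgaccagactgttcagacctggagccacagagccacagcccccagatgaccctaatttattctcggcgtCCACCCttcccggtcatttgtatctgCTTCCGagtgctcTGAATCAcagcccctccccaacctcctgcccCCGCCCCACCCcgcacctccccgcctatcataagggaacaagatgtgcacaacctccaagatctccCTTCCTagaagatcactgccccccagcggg

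Of the 9 members, 6 had a start window in the table, and Nfe2, Vwf and Rab27b had none. The ETS core AGGAAG was found in all 6 of those windows (Itga2b, Gp1ba, Gp1bb, Gp9, Gp5 and Pf4), against 35.4% of the 32851 windows of all genes. The GATA core GATAA was in 4 of the 6 (Gp1ba, Gp9, Gp5 and Pf4), against 25.4% of all windows. In Gp9 the GATA core began 43 bases before the start and the ETS core 16 bases before it. In Gp1ba an ETS core also began 16 bases before the start, with GATA cores 51 and 103 bases before it. The RUNX core TGTGGT was in 1 of the 6 windows (Gp9, 16.8% of all). The other ETS form CGGAAG (16.9% of all), the AP-1-like pattern TGANTCA (7.81% of all) and the SP1 box GGGCGG (35.7% of all) were each in 1, that of Gp1bb. In TGANTCA any base was allowed at N. The Gp1bb match was TGAATCA, with A at N, so it is not called an AP-1 site. The KLF box CCACCC was in 3 (Itga2b, Gp1ba and Gp1bb; 31.5% of all), and at Gp1bb one copy overlapped the SP1 box by 1 base. None of the 6 windows held the longer NF-E2 site (0.155% of all), the TCF/LEF site CTTTGAA (5.14%), the HOX-PBX site TGATTNAT (3.22%) or TATAAA (13.6%). These are matches of letters in a window and do not show that a factor was bound.

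Depth and sex of the libraries bear on every comparison with WT. The paired libraries held 28325 to 45460 peaks and the dKO 10639. Both WT libraries had the lowest background depth as inferred from fold and p-value (6.29 and 7.38 reads per kb), with 8.27 to 11.2 for single mutants, so a peak missing in WT can be one not detectable at its depth. The peak with the fewest reads had 6 in each WT list, and 6 or 7 in the mutant lists. On chromosome Y outside its distal end, the single mutants had 12 to 16 peaks each, the dKO 6 and both WT libraries 0, so sex cannot be told apart from genotype in any comparison with WT. A peak at the targeted gene was present in all 8 paired libraries for Ctnnb1 and Prmt1 and in 7 for Hoxa9. The deleted parts are not given, so these peaks do not check the labels. As for the cell type, 7 to 11 of 11 LSK and stem cell genes with a known start, Kit among them, had a peak there in each paired library. Of the lineage lists, erythroid genes had 0 or 1 of 7 and B cell genes 0 or 1 of 4. T cell genes had 0 or 1 of 5, and granulocyte and monocyte genes 1 or 2 of 8. The members had 1 to 5 of 6, and all genes with a known start 10530 to 11556 of 27025.

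Megakaryocyte loci were partly open in these cells. A peak was present in 8 of the 8 paired libraries at 8 of the 32 regions (25.0%), as it was at 25.1% of all regions. Another 8 regions (25.0%) were found in 6 or 7 libraries, against 11.7% of all regions. The Rab27b region for which that gene was picked is among them, so nothing is read from this difference. Each paired library had a peak at 7 to 9 of the 9 genes. No such share was taken over all genes, and a single peak in the span or within 50 kb was enough. By region, each had a peak at 15 to 23 of the 32 (46.9 to 71.9%), against 36.1 to 57.0% of all regions. These counts include Rab27b. The 8 constant regions belonged to Itga2b, Pf4, Vwf, Rab27b and Nfe2. None belonged to the 4 genes of the GPIb-IX-V complex. These held few regions (1 at Gp1ba, 2 at Gp1bb, 4 at Gp9 and 2 at Gp5), so nothing is read from their absence. In what follows, the regions of a gene are numbered from low to high coordinate. The fold is the authors' ratio of the pileup at the summit to the local background, with 1 added to both, and was not scaled between libraries. A shallower library therefore has a lower fold at the same ratio, and both WT libraries were the shallowest paired ones. How far this bears on the folds below was not tested. The reference tables give gene spans and starts but no exons, so a region inside a gene is not assigned to exon or intron.

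**Figure D1:**
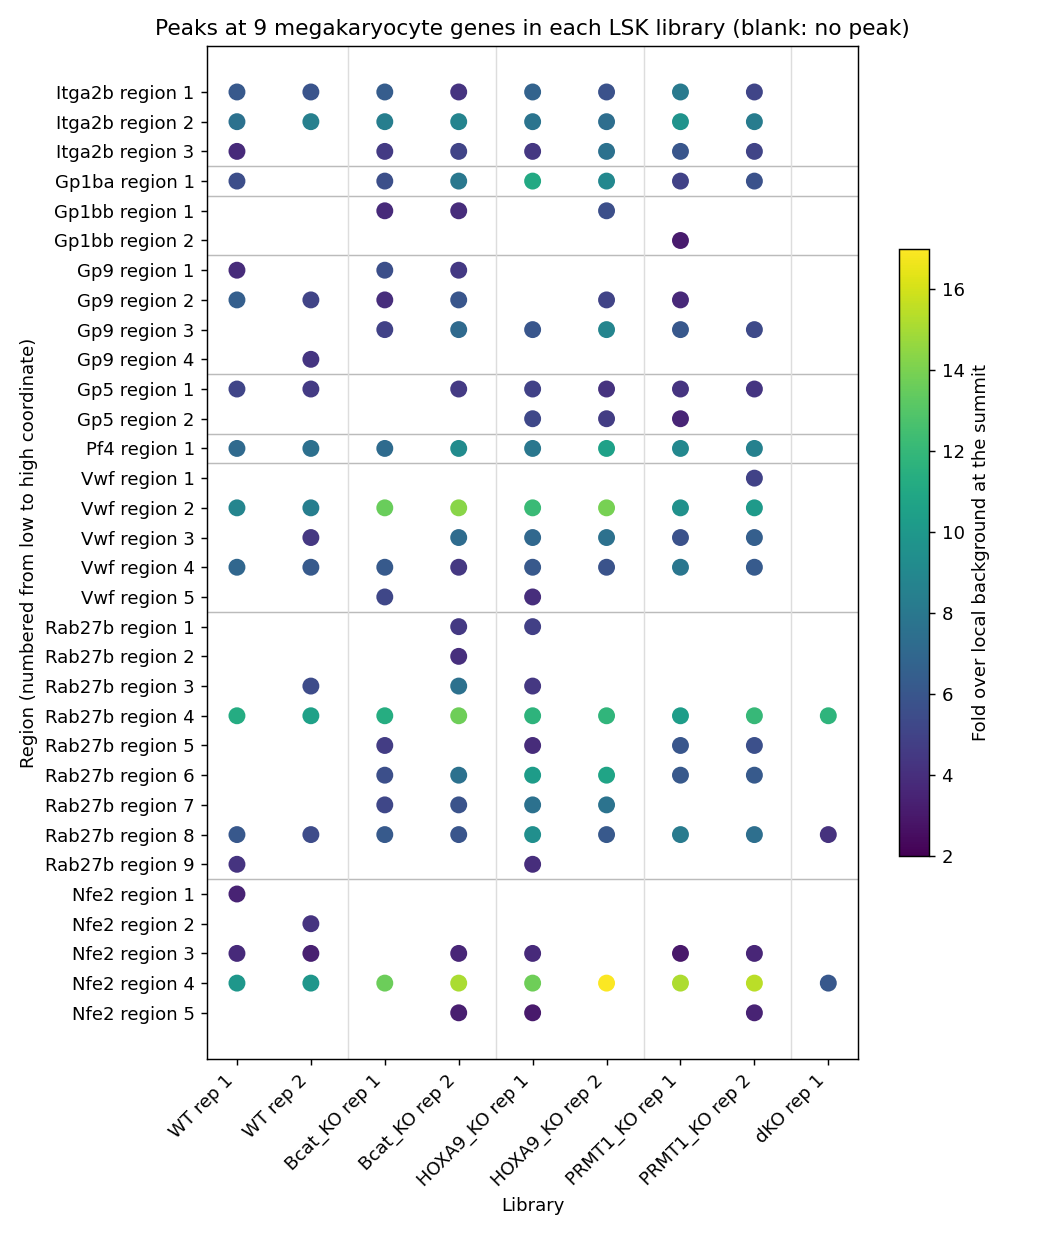
Fold over local background (colour) of the peak at each of the 32 regions (rows) in each of the 9 libraries (columns), with blanks where a library had no peak. Filled rows run through the 8 paired libraries at 8 regions, and the dKO has 3 peaks, 2 at Rab27b and 1 at Nfe2.

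Nfe2, the transcription factor of the set, had the best ranked member region in each paired library, although in WT the fold of Rab27b region 4 was higher. It lay across the high-coordinate end of the gene (region 4, chromosome 15, 103258077 to 103258898, with the gene ending at 103258403). WT had folds of 9.94 and 9.87, Bcat_KO of 13.63 and 15.09, HOXA9_KO of 13.67 and 16.94, and PRMT1_KO of 15.16 and 15.43. All 6 single-mutant libraries lay above both WT libraries. The mean fold of WT was 9.91 ± 0.0464, that of Bcat_KO 14.4 ± 1.04, that of HOXA9_KO 15.3 ± 2.31 and that of PRMT1_KO 15.3 ± 0.190 (± is the SD, n = 2 throughout). Ranked by −log10 p among the peaks of its list, with 1 the strongest, it stood at 3594 and 3873 for WT, 1576 and 1422 for Bcat_KO, 1266 and 1127 for HOXA9_KO, and 920 and 934 for PRMT1_KO. The groups did not overlap and PRMT1_KO had the strongest ranks. The summit held 57 and 42 reads in WT and 77 to 119 in the mutants. The exact permutation test of rank over all divisions of the 8 libraries into pairs gave p = 0.00952, the smallest it allows, and a Benjamini-Hochberg adjusted p of 0.563 over the 46847 regions tested (0.516 to 0.759 under the alternatives). That smallest p was reached by 1.48% of all regions and a p of at most 0.05 by 7.37%. An adjusted p of at most 0.05 was reached by 0 of all regions. Of the 18 tested regions of members other than Rab27b, 2 had a p of at most 0.05, this one and region 2 of Vwf, and both were at the smallest. Of all regions in every paired list, 31.0% had folds in all 6 mutant libraries above both WT libraries, and 0.553% had them all below. Among the 6 such member regions outside Rab27b, 2 had all mutant folds above WT (Nfe2 region 4 and Vwf region 2) and 0 had them below. With peaks ranked by fold, the exact permutation test at Nfe2 gave p = 0.0857.

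The other regions of Nfe2 were weak. Region 3, inside the gene, had a peak in 6 of 8 libraries with folds of 2.98 to 3.81. Region 5, 1.9 kb beyond the high end, was listed in 3 mutant libraries at 3.01 to 3.42. Regions 1 and 2 were each in 1 WT library, at 3.41 and 4.23.

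Vwf, which encodes the adhesive protein stored in platelets and endothelium, had 5 regions over a gene of 133.7 kb. Its strongest, region 2 (chromosome 6, 125572406 to 125573752), lay inside the gene, 20.4 kb from its low-coordinate end. The fold of WT was 8.84 and 8.34, while Bcat_KO had 13.56 and 14.35, HOXA9_KO 12.17 and 13.90, and PRMT1_KO 9.54 and 10.14. Bcat_KO and HOXA9_KO were high, WT was low, and PRMT1_KO stood between them without overlapping either side. As means, WT had 8.59 ± 0.353, Bcat_KO 14.0 ± 0.555, HOXA9_KO 13.0 ± 1.22 and PRMT1_KO 9.84 ± 0.420. WT ranks were 7758 and 7784, Bcat_KO ranks 4284 and 4920, HOXA9_KO ranks 5567 and 5209, and PRMT1_KO ranks 9531 and 8382. By rank position Bcat_KO and HOXA9_KO were stronger than WT and PRMT1_KO was weaker, but by fold, and by rank as a share of each list as deposited, PRMT1_KO was stronger than WT too. The exact permutation test gave p = 0.00952 and an adjusted p of 0.563. The summit held 25 and 31 reads in WT, 42 to 44 in Bcat_KO and HOXA9_KO, and 35 and 39 in PRMT1_KO.

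The next regions of Vwf had lower folds. Region 3, 42.1 kb from the low end, had no peak in WT replicate 1 and 4.43 in WT replicate 2, and no peak in Bcat_KO replicate 1 and 7.23 in the other. It was at 7.0 and 7.54 in HOXA9_KO and at 5.76 and 6.46 in PRMT1_KO. Region 4 (chromosome 6, 125603266 to 125604614), 50.5 kb from the low end, had a peak in all 8 paired libraries. WT folds were 6.97 and 6.20, Bcat_KO folds 6.17 and 4.46, HOXA9_KO folds 6.14 and 5.81, and PRMT1_KO folds 7.91 and 6.25. PRMT1_KO overlapped WT there, and the other single mutants lay below it. In rank position all 6 mutant libraries were behind both WT libraries at region 4, but not in the lists as deposited, and the exact permutation test gave p = 0.181 and an adjusted p of 0.650. No peak lay within 500 bases of either end of Vwf in any library.

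The subunit genes of the GPIb-IX-V complex differed among themselves at their starts. Gp1ba, which encodes the subunit that binds von Willebrand factor, had 1 region, across its start (chromosome 11, 70638716 to 70639340). WT replicate 1 had a fold of 5.53 and replicate 2 no peak, while Bcat_KO had 5.61 and 7.99, HOXA9_KO 11.03 and 9.03, and PRMT1_KO 4.98 and 5.77. Both HOXA9_KO libraries lay above all other libraries, and the rest overlapped. As means, Bcat_KO had 6.80 ± 1.68, HOXA9_KO 10.0 ± 1.41 and PRMT1_KO 5.37 ± 0.556. Its ranks in HOXA9_KO were 9230 and 14039, ahead of 20345 in the WT library that had it. The exact permutation test gave p = 0.143 and an adjusted p of 0.580. Without WT replicate 1, this start met the rule for an opened region in HOXA9_KO that is set out with Rab27b.

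Gp9, the gene of the small subunit that stabilises the complex, had peaks at its start and at the low-coordinate end of its span. At the transcription start of the RefSeq table (region 3, chromosome 6, 87777839 to 87778331) neither WT library had a peak, and all 6 single-mutant libraries did. Bcat_KO had 4.98 and 7.10, HOXA9_KO 6.02 and 8.81, and PRMT1_KO 6.05 and 5.35, on 14 to 25 reads. A peak in all 6 mutant lists and in neither WT list was found at 1.71% of all regions and at 1 of the 23 member regions outside Rab27b, this one. The reverse, a peak in both WT lists and in no single-mutant list, was found at 0.232% of all regions and at 0 of these 23. WT replicate 2 had a weak peak close by, region 4 of Gp9, at 4.29 on 9 reads. Its summit lay 645 bases after the start, and no other library had it. Region 3 of Gp9 did not reach the rule for an opened region in any mutant, because it was outside the strongest 14162 peaks of at least 1 library of each, but it did so in HOXA9_KO in the lists as deposited. At the low-coordinate end of the gene span (region 2, 87775772 to 87776291) the pattern differed. WT had 6.50 and 5.02 there, Bcat_KO 3.99 and 6.01, HOXA9_KO no peak and 5.04, and PRMT1_KO 3.72 and no peak. In rank position all mutant libraries were behind WT at region 2, while in the lists as deposited this held for PRMT1_KO only. The exact permutation test gave p = 0.200 (adjusted p = 0.670) for region 3 and p = 0.143 (adjusted p = 0.580) for region 2. A region present in 1 genotype alone cannot fall below 0.143 in this test.

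The other 2 subunit genes had a peak at the start in few or none of the paired libraries. Gp5 encodes the subunit that thrombin cuts. Its start (region 2, chromosome 16, 30310634 to 30310959) had a peak in both HOXA9_KO libraries at 5.25 and 4.66, in PRMT1_KO replicate 1 at 3.57, and in none of the other 5 paired libraries. Region 1, inside Gp5, had folds of 4.18 to 5.09 in 7 of 8 libraries. Gp1bb, the gene of the subunit linked to GPIb alpha, had no peak within 500 bases of its start in any library. Weak peaks were found inside Gp1bb in PRMT1_KO replicate 1 at 3.10, and 2.5 kb beyond the low end of the gene in Bcat_KO at 3.79 and 3.89 and in HOXA9_KO replicate 2 at 5.60. Among all genes with a start in the table, 33.9% had a peak there in all 8 libraries. Of all start windows, 31% had a peak in all 8 and 52.9% had none. The shares were 18% and 67.8% for windows with a GC content between those of the member windows (41.0 to 58.3%).

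Itga2b, the gene of CD41, had 3 regions. Region 2 (chromosome 11, 102466962 to 102467583), 2693 bases after the start and inside the gene, was the strongest. Folds were 7.59 and 8.49 for WT, 8.37 and 8.76 for Bcat_KO, 7.78 and 7.38 for HOXA9_KO, and 9.69 and 8.22 for PRMT1_KO. Each mutant overlapped WT in fold there. In rank HOXA9_KO, at 11763 and 14911, was behind WT, at 11012 and 8672, though not in the lists as deposited, where Bcat_KO was ahead of WT. The exact permutation test gave p = 0.381 and an adjusted p of 0.895. Region 3, across the start (102469880 to 102470359), was weaker, with 3.80 in WT replicate 1 and no peak in replicate 2. Bcat_KO had 4.60 and 5.04, HOXA9_KO 4.43 and 7.61, and PRMT1_KO 6.04 and 5.03. All 6 mutant libraries were above WT there, by fold against the WT library that had a peak and by rank, with p = 0.181 in the exact permutation test and an adjusted p of 0.650. Region 1, 13909 bases after the start, had a peak in all 8 libraries between 4.26 and 8.10.

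Pf4, the platelet factor 4 gene, was the only member with a known start that had a peak there in all 8 paired libraries (chromosome 5, 90771477 to 90772797). WT folds were 7.14 and 7.49, those of Bcat_KO 7.19 and 9.20, those of HOXA9_KO 7.96 and 10.55, and those of PRMT1_KO 9.01 and 8.53. HOXA9_KO and PRMT1_KO lay above WT in fold and Bcat_KO overlapped it. WT had a mean of 7.32 ± 0.250, Bcat_KO of 8.19 ± 1.42, HOXA9_KO of 9.25 ± 1.83 and PRMT1_KO of 8.77 ± 0.340. In rank WT, at 9763 and 10366, overlapped with HOXA9_KO, at 7776 and 12217, and with PRMT1_KO, at 10223 and 11785. Bcat_KO, at 14296 and 10768, was behind WT, though not in the lists as deposited. The exact permutation test gave p = 0.667 and an adjusted p of 1.00.

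**Figure D2:**
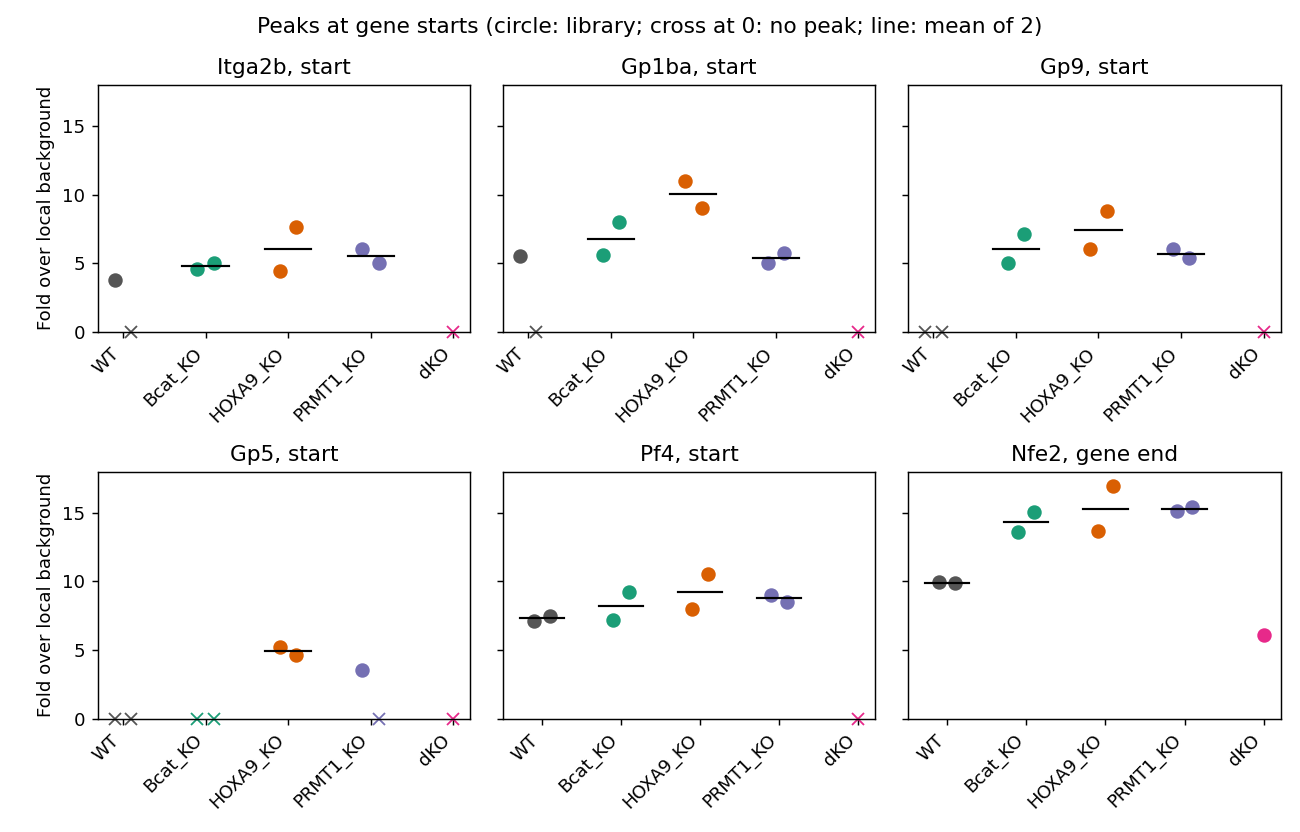
Fold over local background (vertical axis, from 0) at the start of 5 members and at the high-coordinate end of Nfe2, by genotype, with a circle for each library, a cross at 0 for a library without a peak and a line at the mean of 2 libraries. At Nfe2 both WT circles sit near 9.9 and all mutant pairs above 13, and at Gp9 both WT libraries are crosses.

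Rab27b, the largest gene of the set at 162.5 kb, had 9 regions, 8 of them inside it. Region 4 (chromosome 18, 70052899 to 70053646), 74.2 kb from the low-coordinate end, was strong in every library. WT had folds of 11.25 and 10.55, Bcat_KO of 11.31 and 13.69, HOXA9_KO of 11.68 and 11.84, PRMT1_KO of 10.32 and 12.05, and the dKO of 11.77. WT ranked it 3747 and 4476, Bcat_KO 5237 and 4048, HOXA9_KO 4161 and 4226, and PRMT1_KO 8898 and 5417. Bcat_KO and HOXA9_KO overlapped WT in rank, and PRMT1_KO was behind it. In the lists as deposited HOXA9_KO was ahead of WT, and Bcat_KO and PRMT1_KO overlapped it. By fold Bcat_KO and HOXA9_KO lay above WT, and PRMT1_KO overlapped it.

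Region 6 of Rab27b (70062036 to 70062757), 83.3 kb from the low-coordinate end, was the region for which the gene was picked. Neither WT library had a peak there. Bcat_KO had 5.61 and 7.6, HOXA9_KO 10.21 and 10.77, and PRMT1_KO 6.14 and 6.18, and the dKO had no peak. HOXA9_KO was the highest of the 4 groups, with ranks of 9351 and 9733 against 18660 to 25611 in the other mutants. It was the only member region that met the rule for an opened region, which asks for a place among the strongest 14162 peaks of both mutant lists and for none among the 28325 strongest of either WT list. The rule was met by 0.508% of all regions in HOXA9_KO, and nothing is read from the count of members, since the region was chosen by it. The next region outside the rule was region 7 (70101385 to 70101676), also without a peak in WT, with ranks of 16773 and 17955 in HOXA9_KO. Its fold was 5.18 and 5.81 in Bcat_KO and 7.62 and 7.74 in HOXA9_KO, and PRMT1_KO and the dKO had no peak. Region 5 was in both PRMT1_KO libraries at 6.02 and 5.65, in Bcat_KO replicate 1 at 4.65 and in HOXA9_KO replicate 1 at 3.82. Region 8, at the high-coordinate end of the gene, had a peak in every library, with 5.42 and 6.06 in WT, 5.94 to 9.42 in the single mutants and 4.11 in the dKO. Regions 1, 2, 3 and 9 were each in 1 to 3 libraries.

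Of 41336 other regions with a protein-coding gene, those whose rank shares over the 8 libraries were most like region 6 of Rab27b lay inside Clec12b (mean difference of 4.37 percentage points of the list), Gm8439 (4.42), Cd36 (5.11) and 1810024B03Rik (5.68) and 17.69 kb from Ube2q1 (5.83). The closest, inside Clec12b, had folds of 5.12 and 6.94 in Bcat_KO, 10.07 and 11.69 in HOXA9_KO, and 5.45 and 6.36 in PRMT1_KO. The region inside Cd36, a scavenger receptor gene, had 5.61 and 6.71 in Bcat_KO and 11.78 and 10.22 in HOXA9_KO. In PRMT1_KO the Cd36 region had no peak and 6.59. Neither region had a peak in WT. All 5 were matched to the values for which region 6 was picked, so their likeness is a description and carries no test.

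**Figure D3:**
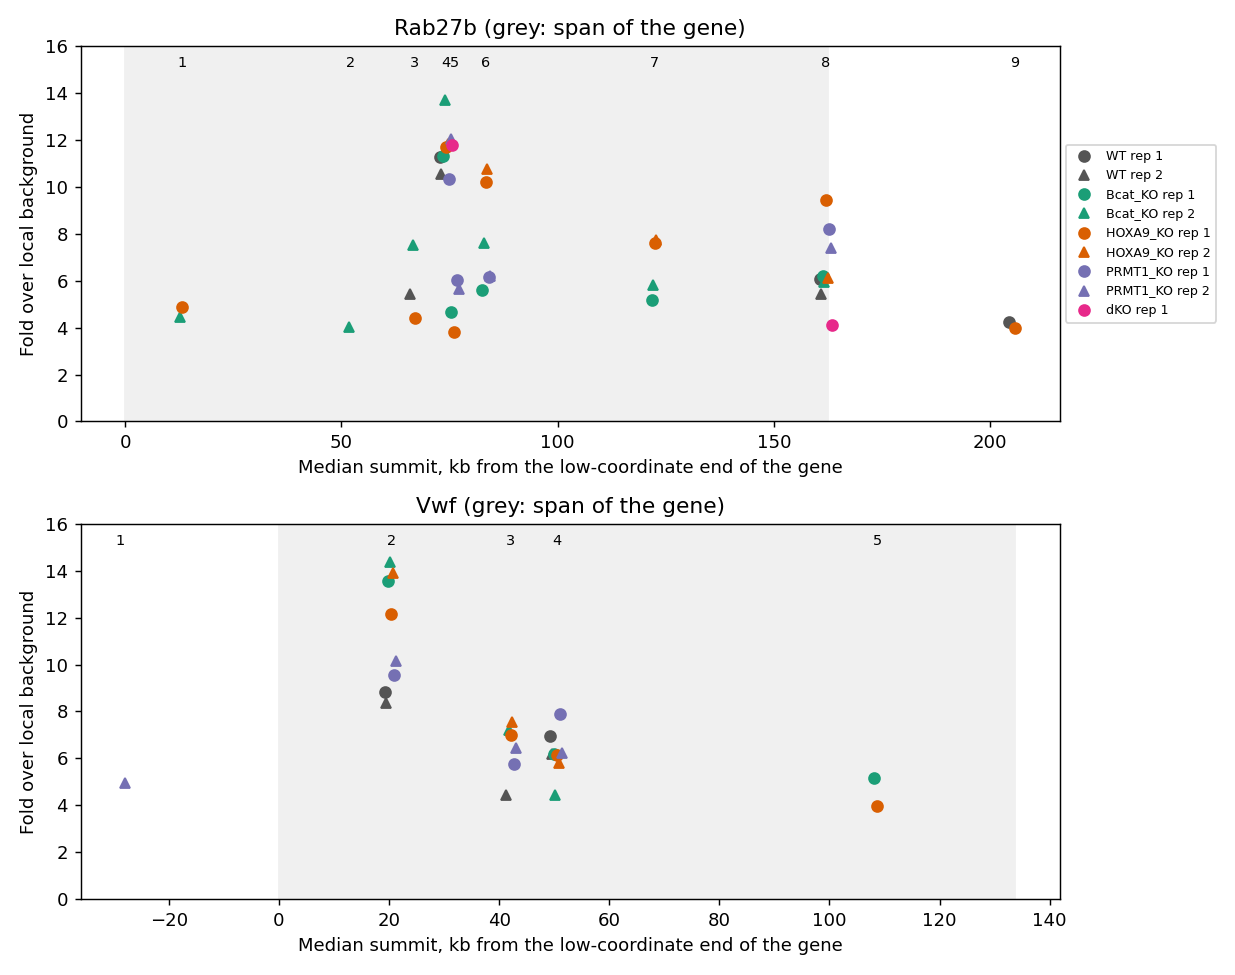
Fold over local background of each peak (vertical axis, from 0) against the median summit of its region in kb from the low-coordinate end of Rab27b (top) and Vwf (bottom), with colours for genotypes, shapes for replicates and a small sideways shift per library. Region 4 of Rab27b holds all 9 libraries between 10.32 and 13.69, and region 6 holds the 6 single-mutant libraries with both HOXA9_KO points on top.

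Counted over the members, few regions were opened or closed in a mutant against WT. No member region was opened in Bcat_KO (0 of 23 tested) or in PRMT1_KO (0 of 21), where 0.311% and 0.219% of all regions were. No member region was closed in Bcat_KO, HOXA9_KO or PRMT1_KO, where 0.0961%, 0.182% and 0.0823% of all regions were. Leaving out a library changed some of these calls. HOXA9_KO had 3 opened regions without its replicate 1 (Itga2b region 3, Gp9 region 3 and Rab27b region 6) and 2 without WT replicate 1 (Gp1ba region 1 and Rab27b region 6), and Bcat_KO had 1 closed region without its replicate 1 (Vwf region 4). Over all regions the opened calls in HOXA9_KO went from 209 to 484 and 469 under the first and second of these settings, and the closed calls in Bcat_KO from 39 to 100 under the last. Of the 32 regions, 25 were among the 28325 strongest peaks of at least 1 paired library and entered these comparisons.

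Ranks that did not overlap between a mutant and WT were counted without Rab27b. In Bcat_KO, 4 of 16 regions ranked stronger and 6 weaker, against 17.9% and 18.5% of all regions. In HOXA9_KO, 6 of 17 ranked stronger and 5 weaker, against 19.5% and 19.1%. In PRMT1_KO, 3 of 15 ranked stronger and 5 weaker, against 18.2% and 17.4%. The weaker side depended on shortening the lists to equal length. With ranks as a share of each list as deposited, 7 of 20 regions ranked stronger and 0 weaker in Bcat_KO, 7 of 21 stronger and 0 weaker in HOXA9_KO, and 5 of 21 stronger and 2 weaker in PRMT1_KO. Over all regions those shares were 30.4% and 4.65% in Bcat_KO, 27.6% and 7.51% in HOXA9_KO, and 30.1% and 4.84% in PRMT1_KO. At equal length, ranks stronger than WT in all 3 mutants were found for 3 of the 18 tested regions outside Rab27b, the starts of Itga2b and Gp9 and the end of Nfe2, against 4.83% of all regions. Ranks weaker in all 3 were found for 3 of the 18, region 2 of Gp9, region 1 of Gp5 and region 4 of Vwf, against 7.01%. The comparisons share their WT libraries. The 3 stronger regions were also stronger in all 3 mutants in the lists as deposited. The median difference of the rank share, mutant minus WT, at equal length and without Rab27b was 5.95 percentage points over 16 member regions in Bcat_KO, −0.24 over 17 in HOXA9_KO and 8.17 over 15 in PRMT1_KO, where a negative value means a stronger rank in the mutant. Over all regions it was 0.74, 0.66 and 0.57. With Rab27b kept, the member value was 0.45 over 23 regions in Bcat_KO, −0.24 over 23 in HOXA9_KO and 4.28 over 21 in PRMT1_KO.

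**Figure D4:**
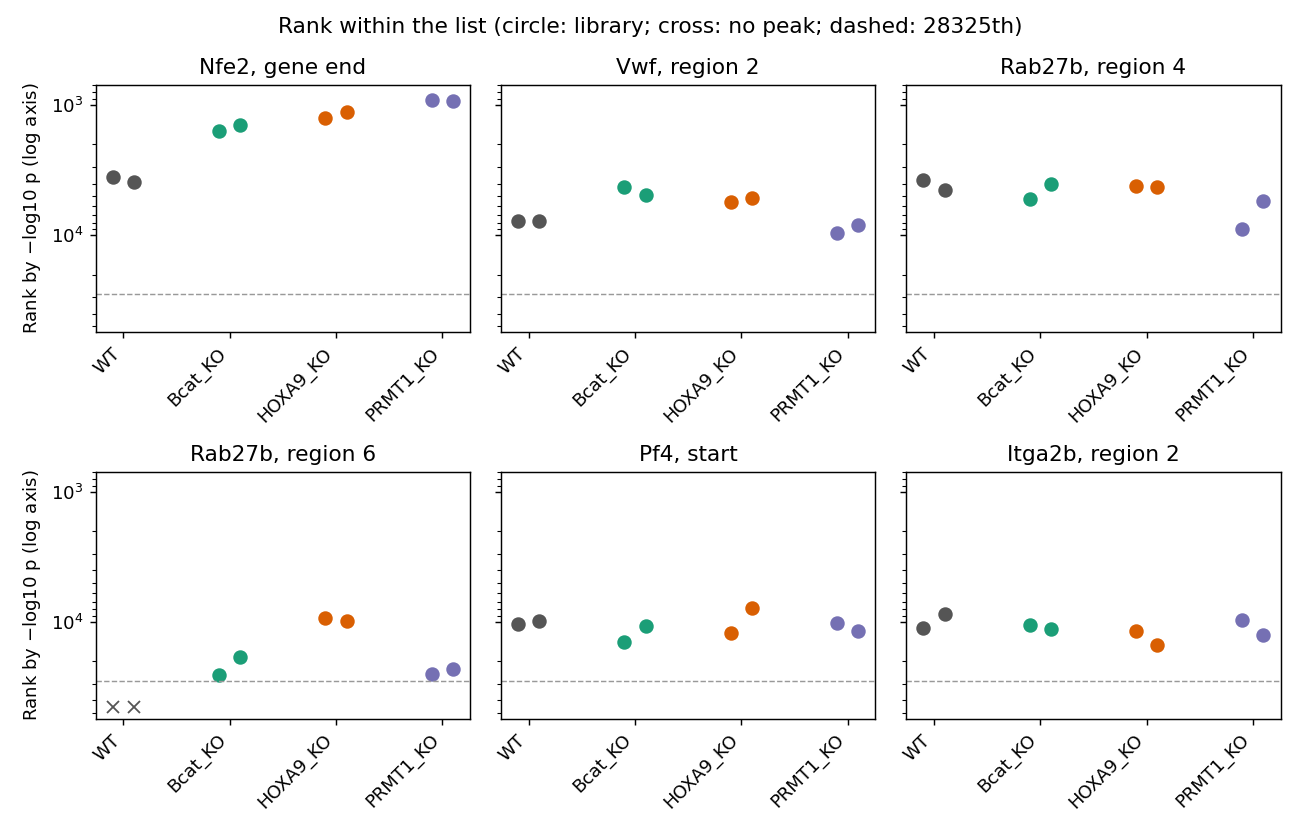
Rank by −log10 p of 6 member regions in the lists of the 8 paired libraries (log axis, strongest at the top), with a circle for each library, a cross for no peak and a dashed line at rank 28325. At Nfe2 the groups separate with WT lowest, at region 2 of Vwf Bcat_KO and HOXA9_KO sit above WT and PRMT1_KO, and at Pf4 and region 2 of Itga2b the groups lie close together.

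Other genes of the lineage were examined from a list of 33. In all, 197 regions were assigned to them and 128 were tested. No region was called opened or closed in any mutant against WT, where 0.0823% to 0.508% of all regions were. Among the receptors and surface genes, the start of Cd9, a tetraspanin gene, had a peak in all 8 paired libraries. Gp6, the collagen receptor gene, Clec1b, the gene of the podoplanin receptor CLEC-2, and Treml1, a granule membrane gene, had no region at all. Among the granule and cytoskeleton genes, Ppbp, which encodes a platelet chemokine, had no region, Plek had 10 and Tbxas1, the thromboxane synthase gene, had 22. Of the transcription factors, Runx1 and Fli1 had 23 regions each and Gata1 had 1. These counts were not set against gene length or against all genes, so they do not rank the genes by openness. Over the whole list, ranks in Bcat_KO did not overlap with WT at 22 of 113 regions on the stronger side (19.5%). On the weaker side this held for 19 (16.8%). In HOXA9_KO this was so at 25 (21.4%) and 23 (19.7%) of 117, and in PRMT1_KO at 29 (26.9%) and 11 (10.2%) of 108. Over all regions the stronger and weaker shares were 17.9% and 18.5% in Bcat_KO, 19.5% and 19.1% in HOXA9_KO, and 18.2% and 17.4% in PRMT1_KO. These genes were named as examples after their values were seen.

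In the dKO, 3 of the 32 regions had a peak (9.38%; 95% Wilson interval 3.24 to 24.2%), against 13.7% of all regions. Of the 8 regions present in all paired libraries, 3 did (37.5%; 13.7 to 69.4%), against 43.2% of all such regions. The 3 were regions 4 and 8 of Rab27b and region 4 of Nfe2. Region 4 of Rab27b ranked 208 in the dKO list, and region 4 of Nfe2 ranked 4005 with a fold of 6.07. In all 8 paired libraries the order was the reverse, with Nfe2 ahead of Rab27b. Pf4, region 2 of Vwf and region 2 of Itga2b had no peak in the dKO, whose depth could not be recovered. The library name in its peak labels is of another form than those of the paired libraries. Whether it was run apart from them is not stated, so handling and genotype cannot be told apart for the dKO.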

How the data were processed

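Lists of peaks from 9 ATAC-seq libraries were used as deposited. Per the submitters' processing notes the tools included Bowtie2 2.4.2, SAMtools 1.14, Picard 2.27.4 and MACS2, and the build was GRCm38. The peak names, per the file headers and rows, show removal of unmapped and duplicate reads. The authors deposited for each peak a score, the fold of pileup over local background (a ratio), −log10 p and −log10 q. Peaks were called per library. The lowest −log10 q was 1.0 or 1.01.

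Peaks sharing at least 1 bp were joined into regions (Python 3.11.15, pandas 2.3.3, NumPy 2.4.6, SciPy 1.17.1). Ranks by −log10 p were compared in lists shortened to the 28325 strongest peaks, with a missing region ranked last. Genotypes were tested over the 8 paired libraries by an exact permutation test, with Benjamini-Hochberg adjustment, checked on simulated data; 2 against 2 libraries cannot fall below p = 0.333. Reads at summits were recovered from fold and p, and were whole within 0.01 for 100.0% of peaks in the 8 libraries.

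The members and lists were chosen with earlier results of these data known. Named regions were those at a start (within 500 bp), the best ranked of each gene, those called opened or closed, and those at the smallest p. Others were named after their values were seen. Promoter windows and gene spans came from RefSeq. Alternatives were unshortened lists, a −log10 q minimum of 5, ranking by fold or log2 rank, joining by summit, a 10 kb window, a stricter cut of 7081 strong peaks, a replicate block and leaving out each library.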

Additional observations from a re-analysis of the deposited data

How the results depend on the processing

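The main limits are 2 libraries a genotype, lists without reads or a shared scale, WT libraries that are the shallowest and lack the chromosome Y peaks of the mutants, and a cut at −log10 q of 1.0, below which a region is only not detected. No member region outside Rab27b had an adjusted p of at most 0.05 under any alternative, and the adjusted p of Nfe2 region 4 and Vwf region 2 ran from 0.516 to 0.759 over all alternatives. The cause of the changes below was not tested, except that shortening a list removes its weaker peaks.

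With the lists as deposited, without Rab27b, Bcat_KO had 7 stronger and 0 weaker regions, HOXA9_KO had 0 weaker, and PRMT1_KO had 5 stronger and 2 weaker. The opened regions in HOXA9_KO were then 3 (Rab27b regions 6 and 7 and Gp9 region 3), while over all regions they went from 209 to 695. With a −log10 q of at least 5, Bcat_KO had 2 stronger and 3 weaker regions, HOXA9_KO 3 weaker, and PRMT1_KO 1 stronger and 2 weaker. Shares over all regions were not taken at this minimum, so nothing is read from these counts. With the 7081 strongest peaks in place of 14162 in the opened rule, HOXA9_KO had 0 opened members. Over all regions the opened calls in HOXA9_KO then fell from 209 to 10. Ranked by fold, 1 region had an exact permutation p of at most 0.05, with no share taken over all regions. The dKO share was 37.5% over regions present in all 8 libraries.

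Leaving out 1 library at a time, opened members in HOXA9_KO ranged from 1 to 3 and closed members in Bcat_KO from 0 to 1. Over all regions these calls ranged from 372 to 484 and from 100 to 232. Weaker members in PRMT1_KO ranged from 5 to 9, with 9 without WT replicate 1 and 8 without PRMT1_KO replicate 1. Leaving out a library of either group sets 2 libraries against 1, where ranks overlap less easily. These counts are therefore not comparable with the main one, and their shares over all regions were not taken. The exact permutation p ranged from 0.00952 to 0.0286 at Vwf region 2 and stayed at 0.00952 at Nfe2 region 4. Same-numbered libraries did not deviate together (r from -0.01 to 0.03), so the numbers are not taken as pairs. With the replicate block, 3 members had an exact permutation p of at most 0.05, and Vwf region 2 and Nfe2 region 4 were at 0.0417, the smallest that its 24 divisions allow (adjusted p = 0.759). The share of all regions at or below 0.05 was not taken with the block.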
